A study of Homo sapiens with 28 samples.

Results

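The BCL2 family genes described here are BCL2, BCL2L1, BCL2L2, MCL1, BAX, BAK1, BCL2L11, BIK, BMF and PMAIP1, and they were taken from the count table by gene symbol. All 10 genes were present, each as 1 of the 61815 human gene entries of the count table. They were measured by RNA-seq in LNCaP, a human prostate cancer cell line that responds to androgen, over 28 libraries in 8 groups. All cells were grown in charcoal-stripped serum, which removes steroid hormones, so that every group, the controls included, was deprived of androgen before treatment. In the 24 h experiment, 4 groups of 3 libraries received 0.1% DMSO (vehicle), the CDK8/19 inhibitor Senexin B at 1 μM as the labels give it, the synthetic androgen R1881 at 0.1 nM, or Senexin B with R1881. The paper's text gives a higher dose of Senexin B for LNCaP cells than the labels do. In the 72 h experiment, 4 groups of 4 libraries received vehicle, the CDK8/19 inhibitor SNX631 at 500 nM, R1881 at 1 nM, or SNX631 with R1881. The experiments differed in time, androgen dose and inhibitor at once, so that these cannot be told apart, and every group came from 1 cell line with wild-type genotype per the labels.

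Proteins of the BCL2 family control the permeability of the outer mitochondrial membrane, which decides whether cytochrome c leaves the organelle and caspases are activated. The anti-apoptotic proteins BCL2, BCL-xL (BCL2L1), BCL-w (BCL2L2) and MCL1 hold the pore-forming effectors BAX and BAK (BAK1) in check. The BH3-only proteins BIM (BCL2L11), BIK, BMF and NOXA (PMAIP1) bind the anti-apoptotic proteins or the effectors and promote death. Many of these proteins are also regulated after transcription, by splicing, phosphorylation or degradation, which gene counts do not show. CDK8 and CDK19 are kinases of the Mediator complex, which links transcription factors such as the androgen receptor to RNA polymerase II.

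Total counts per library ranged from 9846595 to 33809419, and levels are given as counts per 1000000 (CPM) on library sizes scaled by TMM. Vehicle replicate 3 at 24 h held the highest total, and the next highest was 15248512. KLK3, the androgen receptor target that encodes PSA, was used as a check of the androgen labels: its fitted log2 fold change with R1881 was 6.15 at 24 h and 6.57 at 72 h. The 8 prostate luminal markers examined summed to between 2837 and 3906 CPM in every library. Of 9 markers of other cell types, COL1A2, PECAM1, PTPRC, KRT5, TP63 and CHGA held at most 3 counts in any library. The sum of those 9 markers, which came mostly from VIM and COL1A1, lay between 93.8 and 115 CPM in libraries without R1881 and between 52.2 and 71.6 CPM in libraries with R1881. Its part in the results below was not tested.

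PMAIP1 and BMF were the members that changed most, and their upstream sequences are shown so that the 2 promoters can be compared. PMAIP1 lies on the plus strand at chr18:59899948-59904306 and BMF on the minus strand at chr15:40087890-40108892 (GRCh38, GENCODE release 29). The sequences are from RefSeq (GRCh38.p14), read 5′ to 3′ on the strand of the gene, and stop before the first annotated base of the gene in GENCODE. For PMAIP1 the stretch is chr18:59899746-59899947 and for BMF chr15:40108893-40109129. Neither stretch overlaps an annotated exon. RefSeq holds a further start of BMF inside the gene, and the bases before that start are not shown. Capitals mark a match to TGACGT, the half-site of the cAMP response element, which is read here from the opposite strand.
PMAIP1: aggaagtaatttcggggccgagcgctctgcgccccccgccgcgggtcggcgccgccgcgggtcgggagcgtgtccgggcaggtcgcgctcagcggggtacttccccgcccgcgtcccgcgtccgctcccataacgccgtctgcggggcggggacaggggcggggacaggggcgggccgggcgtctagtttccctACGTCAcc
BMF: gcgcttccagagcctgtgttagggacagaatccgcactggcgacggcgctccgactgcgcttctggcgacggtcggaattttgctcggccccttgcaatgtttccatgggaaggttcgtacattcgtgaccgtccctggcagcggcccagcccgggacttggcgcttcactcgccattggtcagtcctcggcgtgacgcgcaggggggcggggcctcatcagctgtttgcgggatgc

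The match in the PMAIP1 promoter begins 56 bases before the RefSeq start. Promoters of 7 of the 10 members, with 9 starts in all, were in the RefSeq table, and 250 bases before each start were searched on both strands. TGACGT was found for PMAIP1 alone among these members, and in 7.1% of 35116 promoters overall. The E-box CACGTG, a palindrome that reads alike on both strands, was found for BAX alone, with 4 copies, and in 6.34% of promoters overall. AGAACA, the half-site of the androgen receptor, was found for none of these members and in 12.4% of promoters overall. The full androgen response element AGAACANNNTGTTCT was found for none of these members and in 0.00285% of promoters overall. A match or its absence in these windows is a description of the letters only.

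Levels were compared between members as CPM per kilobase of merged exons. The exons are from GENCODE release 29, and the annotation used in counting is not given in the sources used here. BIK had the shortest merged exons of the members, at 0.953 kb. In vehicle at 24 h its mean was 23.0 CPM, beside 21.4 CPM for BAX and 21.8 CPM for BAK1. MCL1 stood highest in every group, with means from 55.9 to 85.8 CPM per kb, followed by BCL2L1 with means from 29.8 to 56.9 CPM per kb and BIK with means from 20.5 to 24.1 CPM per kb. In each of the 8 groups the lowest library of MCL1 lay above the highest of BCL2L1, and the lowest of BCL2L1 above the highest of BIK. BCL2 stood lowest in every group, with means from 0.143 to 0.366 CPM per kb, and rested on only 15 to 73 counts per library. The order of the other members changed with treatment. BMF held rank 4 in vehicle at 24 h with 11.7 ± 0.31 CPM per kb (SD, n = 3) and rank 9 with R1881 with 3.48 ± 0.11 CPM per kb (SD, n = 3). PMAIP1 held rank 9 in vehicle at 24 h with 1.79 ± 0.097 CPM per kb (SD, n = 3) and rank 6 with R1881 and Senexin B with 9.19 ± 0.24 CPM per kb (SD, n = 3). BAX, BAK1, BCL2L2 and BCL2L11 stayed between 5.74 and 11.4 CPM per kb in all group means. Neighbours in that range were often not clear of each other: in vehicle at 72 h, the libraries of BAX, BAK1 and BCL2L2 overlapped in their order.

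**Figure D1:**
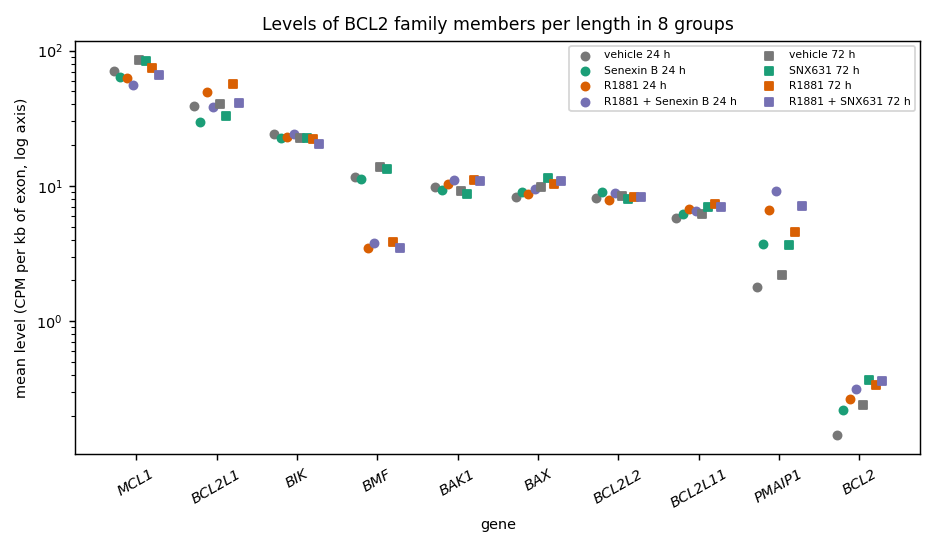
Mean level of each member in each of the 8 groups, in CPM per kb of merged exons on a log axis; circles are 24 h groups and squares 72 h groups, and genes are ordered by their level in vehicle at 24 h. MCL1 is highest and BCL2 lowest in all groups, while BMF and PMAIP1 move across the order with R1881.

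The effects were tested with edgeR (quasi-likelihood test, Benjamini-Hochberg adjustment over all genes tested), and a member was called at an FDR under 0.01 with a fold change over 1.5. The first comparison asked what androgen did to these genes in cells without inhibitor. At 24 h, R1881 raised PMAIP1 and BCL2 and lowered BMF past both limits, so that 3 of 10 members were called, beside 19% of the 15948 genes tested. With the FDR limit alone 6 members passed, beside 48.4% of all genes. At 72 h, 2 of 10 members were called, PMAIP1 higher and BMF lower, beside 19.8% of the 16074 genes tested, and 6 passed the FDR limit alone, beside 52.2%. The androgen and inhibitor effects below share their vehicle libraries. The median absolute log2 fold change of the members was 0.20 at 24 h and 0.24 at 72 h, and that of all genes tested was 0.26 at both times. With library totals in place of TMM, the log2 fold changes of all genes at 72 h shifted by a median of -0.10 without and -0.11 with SNX631, and the share of higher genes among those called for R1881 at 72 h went from 48.9% to 38%.

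Among the anti-apoptotic members, BCL2, whose protein gave the family its name, was the one called with R1881. In vehicle at 24 h it was at 1.41, 1.83 and 1.79 CPM in the 3 libraries, and with R1881 at 3.12, 3.18 and 3.11 CPM. All 3 libraries with R1881 lay above all 3 vehicle libraries. BCL2 rose 1.81-fold at 24 h (log2 0.86, SE 0.21, edgeR FDR 0.000901), but did not pass a test against a fold change of 1.5, at an FDR of 0.215. At 72 h the vehicle libraries were at 3.05, 2.52, 2.92 and 2.73 CPM, and those with R1881 at 2.82, 4.23, 3.48 and 5.27 CPM. These groups overlapped, with replicate 1 of R1881 below the highest vehicle library. The BCL2 difference at 72 h was 0.52 on the log2 scale (SE 0.18) and missed the limit (edgeR FDR 0.0117). It passed the FDR limit with no filter on low counts, and without R1881 replicate 1 or 3, or without replicate 4 of SNX631 or of R1881 with SNX631, with FDRs over all left-out libraries from 0.00257 to 0.108.

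BCL2L1 encodes BCL-xL as well as a shorter pro-apoptotic splice form, which these counts do not separate. Its vehicle libraries at 24 h were at 129, 131 and 129 CPM and those with R1881 at 162, 166 and 167 CPM. At 72 h they were at 135, 135, 133 and 132 CPM with vehicle and at 197, 186, 190 and 181 CPM with R1881. The groups did not overlap at either time. BCL2L1 rose by 27.3% at 24 h (log2 0.35, SE 0.034, edgeR FDR 2.28e-10) and by 40.9% at 72 h (log2 0.49, SE 0.031, edgeR FDR 6.51e-17), both under the fold limit. The antisense gene ABALON covers 43% of the exon length of BCL2L1, and since the use of strand in counting was not stated, reads of the 2 genes may not be told apart.

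MCL1, a short-lived anti-apoptotic protein, moved the other way. Its libraries were at 305, 316 and 311 CPM with vehicle at 24 h and at 282, 275 and 268 CPM with R1881. At 72 h they were at 381, 367, 367 and 385 CPM with vehicle and at 335, 326, 321 and 318 CPM with R1881. Every library with R1881 lay below every vehicle library of its experiment. MCL1 fell by 11.6% at 24 h (log2 -0.18, SE 0.032, edgeR FDR 1.39e-05) and by 13.4% at 72 h (log2 -0.21, SE 0.024, edgeR FDR 1.69e-09). BCL2L2 was at 31.7 to 39.4 CPM in all 28 libraries, and its log2 differences with R1881, -0.04 at 24 h (95% interval -0.15 to 0.073) and -0.03 at 72 h (95% interval -0.14 to 0.069), did not pass. For this gene 19.4% of the exon length is shared with the readthrough gene BCL2L2-PABPN1 on the same strand.

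The effectors moved little. BAX was at 21.8, 22.2 and 20.2 CPM with vehicle and 21.9, 23.0 and 22.1 CPM with R1881 at 24 h, and its log2 difference of 0.084 did not pass (edgeR FDR 0.285). The BAX log2 difference at 72 h was 0.071 (edgeR FDR 0.328). BAK1 did not pass at 24 h, with a log2 difference of 0.086 (95% interval -0.058 to 0.23). At 72 h BAK1 was at 18.8, 21.2, 19.7 and 21.7 CPM with vehicle and at 25.2, 24.0, 24.6 and 23.4 CPM with R1881, with no overlap. BAK1 rose by 18.9% at 72 h (log2 0.25, SE 0.062, edgeR FDR 0.000619), a pass that was lost with library totals only, at an FDR of 0.0355.

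The BH3-only members held the strongest androgen responses, and these had opposite directions. PMAIP1, whose product NOXA binds chiefly MCL1, was at 3.94, 4.23 and 3.81 CPM with vehicle at 24 h and at 15.8, 13.9 and 14.7 CPM with R1881. The lowest library with R1881 was thus far above the highest vehicle library. PMAIP1 rose 3.74-fold (log2 1.90, SE 0.11, edgeR FDR 3.66e-16). At 72 h it was at 5.05, 4.58, 5.49 and 4.6 CPM with vehicle and at 11.0, 10.9, 11.1 and 7.9 CPM with R1881. The groups again did not overlap, although replicate 4 of R1881 lay apart from the other 3. PMAIP1 rose 2.07-fold at 72 h (log2 1.05, SE 0.12, edgeR FDR 9.67e-10).

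BMF, a BH3-only protein that is held at the cytoskeleton by dynein light chain, was at 64.3, 65.1 and 61.9 CPM with vehicle at 24 h and at 19.5, 18.3 and 19.1 CPM with R1881. At 72 h it was at 76.8, 75.3, 70.9 and 76.7 CPM with vehicle and at 24.8, 20.6, 19.6 and 19.3 CPM with R1881. No library with R1881 came near a vehicle library. BMF fell to 0.299 of the vehicle level at 24 h (log2 -1.74, SE 0.062, edgeR FDR 1.72e-22) and to 0.279 at 72 h (log2 -1.84, SE 0.061, edgeR FDR 1.14e-26). The antisense gene BMF-AS1 shares 8.46% of the exon length of BMF.

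BCL2L11, which encodes the broadly binding BH3-only protein BIM, was at 39.1, 38.1 and 37.4 CPM with vehicle at 24 h and at 45.8, 44.1 and 43.7 CPM with R1881. The groups did not overlap, and BCL2L11 rose by 17.1% (log2 0.23, SE 0.055, edgeR FDR 0.000643). The BCL2L11 increase at 72 h was 18.1% (log2 0.24, SE 0.055, edgeR FDR 0.000259). Both passes were lost with library totals only, with FDRs of 0.0188 and 0.0294, and the one at 24 h without vehicle replicate 3, at an FDR of 0.01. The long noncoding gene MIR4435-2HG shares 10.9% of the exon length of BCL2L11 on the opposite strand. BIK, a BH3-only protein of the endoplasmic reticulum, was at 18.6 to 25.6 CPM in all 28 libraries and did not pass with R1881, with log2 differences of -0.12 at 24 h and -0.03 at 72 h.

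**Figure D2:**
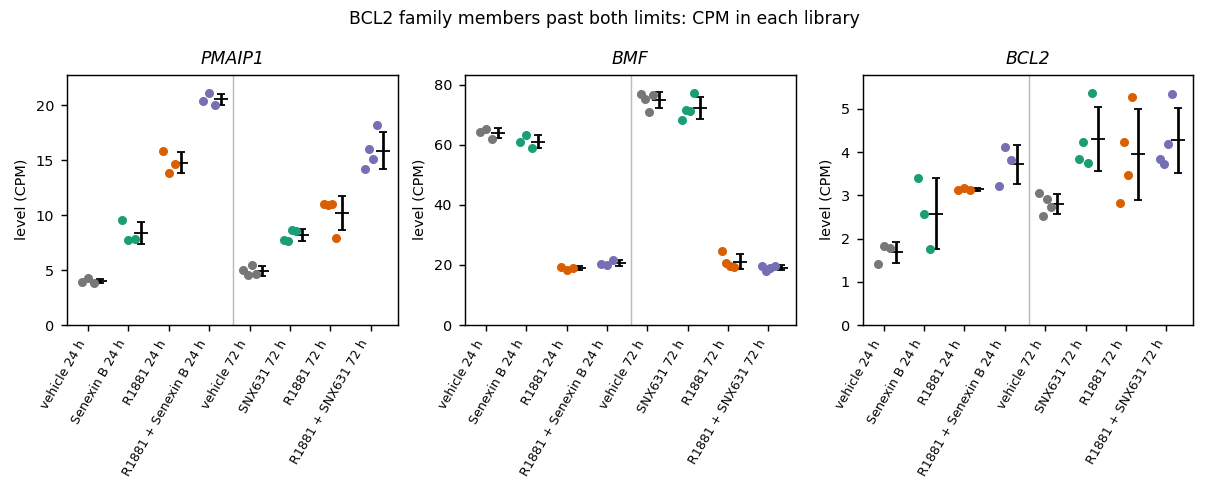
Level in CPM of PMAIP1, BMF and BCL2 in each library of the 8 groups; points are libraries, bars are means with SD, and the grey line divides the 24 h groups (n = 3) from the 72 h groups (n = 4). PMAIP1 is raised by R1881 and by either inhibitor, BMF is lowered in every group with R1881, and the BCL2 libraries spread widely in most groups.

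The size of the androgen effect at 72 h was compared with that at 24 h in a fit of all libraries, where 1 of 10 members was called, beside 1.88% of 16672 genes, and the same 1 passed the FDR limit alone, beside 7.54%. That member was PMAIP1, whose androgen effect was smaller at 72 h by 0.85 on the log2 scale (SE 0.17, edgeR FDR 0.00027). The vehicle level of PMAIP1 was 4.0 ± 0.22 CPM at 24 h (SD, n = 3) and 4.93 ± 0.43 CPM at 72 h (SD, n = 4), and the level with R1881 was 14.8 ± 0.98 CPM and 10.2 ± 1.6 CPM. For BMF the androgen effects differed by -0.09 on the log2 scale (95% interval -0.27 to 0.08), and for BCL2 by -0.34 (95% interval -0.89 to 0.22). The BCL2L1 difference of 0.15 did not pass (edgeR FDR 0.0205).

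The second comparison asked what CDK8/19 inhibition did to these genes in cells without androgen. Senexin B called 1 of 10 members at 24 h, PMAIP1, beside 3.79% of all genes, and 3 passed the FDR limit alone, beside 25.1%. SNX631 called 2 of 10 members at 72 h, PMAIP1 and BCL2, beside 4.77% of all genes, and 4 passed the FDR limit alone, beside 26.9%. The median absolute log2 fold change of the members was 0.15 with Senexin B and 0.12 with SNX631, beside 0.15 and 0.14 for all genes tested.

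PMAIP1 was at 9.52, 7.71 and 7.85 CPM with Senexin B at 24 h, all above the vehicle libraries given before. It rose 2.13-fold (log2 1.09, SE 0.12, edgeR FDR 1.57e-08). With SNX631 at 72 h PMAIP1 was at 7.78, 7.61, 8.64 and 8.6 CPM, again clear of its vehicle libraries. It rose 1.66-fold (log2 0.73, SE 0.13, edgeR FDR 9.15e-06). The increase passed a limit of 1.5-fold by its estimate, but not in a test against that fold at 72 h. So the NOXA gene responded in the same direction to either inhibitor and to androgen.

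BCL2 was at 3.39, 2.57 and 1.75 CPM with Senexin B at 24 h, where the lowest library fell within the vehicle range. Its log2 difference of 0.58 (SE 0.22) did not pass (edgeR FDR 0.0358), though it did without Senexin B replicate 3, at an FDR of 0.00548. With SNX631 at 72 h BCL2 was at 3.85, 4.23, 3.76 and 5.36 CPM, above the 4 vehicle libraries. It rose 1.53-fold (log2 0.62, SE 0.17, edgeR FDR 0.00394). This call was close to both limits: it was lost without SNX631 replicate 4, without vehicle replicate 2 or without vehicle replicate 4, with log2 differences from 0.50 to 0.68 over all left-out libraries, and by DESeq2 at an FDR of 0.017.

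BCL2L1 moved against its androgen response. It was at 96.6, 101 and 98.2 CPM with Senexin B at 24 h and at 106, 115, 111 and 105 CPM with SNX631 at 72 h, below every vehicle library. BCL2L1 fell by 24% with Senexin B (log2 -0.40, SE 0.036, edgeR FDR 2.94e-10) and by 18.1% with SNX631 (log2 -0.29, SE 0.033, edgeR FDR 3.47e-09). MCL1 was at 282, 275 and 280 CPM with Senexin B and fell by 10.3% (log2 -0.16, SE 0.031, edgeR FDR 0.000182). With SNX631 MCL1 was at 374, 372, 363 and 366 CPM, overlapping its vehicle libraries, with 2 of the 4 libraries below the lowest of them. The MCL1 difference was -0.03 on the log2 scale (95% interval -0.072 to 0.021, edgeR FDR 0.435).

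Among the effectors BAX was at 28.2, 30.1, 30.1 and 29.3 CPM with SNX631, above the vehicle libraries at 25.3, 25.6, 22.1 and 27.7 CPM. It rose by 16.5% (log2 0.22, SE 0.059, edgeR FDR 0.00302), a pass lost without SNX631 replicate 2 or 3, without vehicle replicate 3, and by DESeq2 at an FDR of 0.0137. With Senexin B the BAX difference was 0.15 on the log2 scale (edgeR FDR 0.0713). BAK1, BCL2L2, BCL2L11, BIK and BMF did not pass with either inhibitor. BCL2L11 was nearest, with a log2 difference of 0.17 with SNX631 (edgeR FDR 0.0135), and it passed in one fit of all libraries, with no filter on low counts, and without replicate 2 of SNX631 or of R1881, with FDRs down to 0.00337. For BMF the 95% intervals of the inhibitor effects on the log2 scale ran from -0.14 to 0.031 with Senexin B and from -0.14 to 0.030 with SNX631, both far inside the fold limit of 0.58. BMF, the member lowered most by R1881, was at 61.0, 63.3 and 58.8 CPM with Senexin B and at 68.4, 71.6, 71.4 and 77.2 CPM with SNX631.

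**Figure D3:**
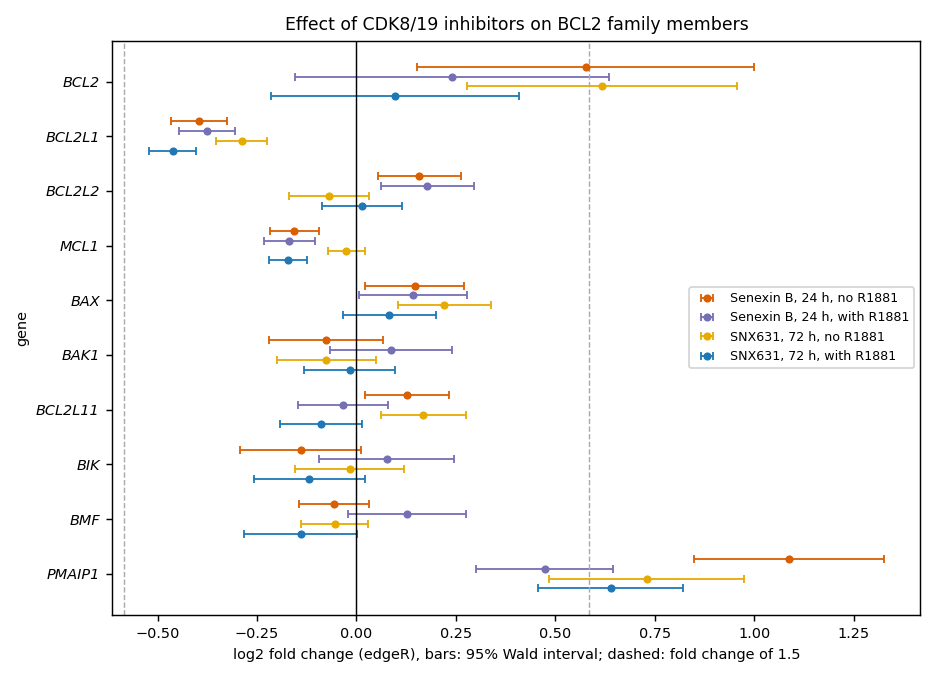
Log2 fold change of each member with Senexin B at 24 h or SNX631 at 72 h, without and with R1881; points are edgeR estimates, bars 95% Wald intervals, and dashed lines a fold change of 1.5. PMAIP1 lies to the right of 0 and BCL2L1 to the left in all 4 comparisons, and the remaining members lie nearer 0 or have wide intervals.

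The third comparison asked whether inhibitor and androgen changed each other's effect. In the presence of R1881, Senexin B called 0 of 10 members at 24 h by edgeR, beside 3.12% of all genes, and 0 by DESeq2, while 5 members had an unadjusted p under 0.05. The share of all genes at that unadjusted limit was not counted. With R1881, SNX631 called 1 of 10 at 72 h, PMAIP1, beside 4.12% of all genes. With the FDR limit alone, PMAIP1 rose and BCL2L1 and MCL1 fell with either inhibitor in the presence of R1881, 3 of 10 members each time, beside 22.7% of all genes at 24 h and 33.1% at 72 h.

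PMAIP1 reached its highest level in the combined treatments. It was at 20.4, 21.1 and 20.1 CPM with R1881 and Senexin B at 24 h and at 14.2, 16, 15.1 and 18.2 CPM with R1881 and SNX631 at 72 h. In both experiments every library of the combination lay above every library of the other 3 groups. Beyond R1881 alone, PMAIP1 rose 1.39-fold with Senexin B (log2 0.47, SE 0.087, edgeR FDR 7.25e-05) and 1.56-fold with SNX631 (log2 0.64, SE 0.093, edgeR FDR 3.53e-07). The call with SNX631 was lost without replicate 4 of R1881 or replicate 4 of R1881 with SNX631, where the log2 fold change was as low as 0.53. R1881 in turn raised PMAIP1 2.44-fold in the presence of Senexin B (edgeR FDR 1.94e-13) and 1.95-fold in the presence of SNX631 (edgeR FDR 1.83e-11).

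The interaction is the androgen effect with inhibitor minus that without, on the log2 scale. For PMAIP1 it was -0.61 at 24 h (SE 0.15) and missed the limit (edgeR FDR 0.0114). It passed without R1881 replicate 2, without Senexin B replicate 2 and with a filter at 1 CPM, and FDRs over all left-out libraries ran from 0.00592 to 0.0996. At 72 h the PMAIP1 interaction was -0.09 (95% interval -0.40 to 0.22). No member was called for the interaction at either time by edgeR or DESeq2, beside 0.577% of all genes at 24 h and 1.19% at 72 h. With the FDR limit alone 0 of 10 passed at 24 h, beside 2.09% of all genes, and 2 of 10 passed at 72 h, BCL2L1 and MCL1, beside 7.09%. At 24 h 2 members had an unadjusted p under 0.05, a limit at which all genes were not counted.

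In the combined treatments BCL2L1 lay near its vehicle level, although that difference itself was not tested. It was at 129, 124 and 129 CPM with R1881 and Senexin B, beside 129 to 131 CPM in vehicle, and at 133, 140, 137 and 137 CPM with R1881 and SNX631, beside 132 to 135 CPM in vehicle. Relative to R1881 alone BCL2L1 fell by 22.9% with Senexin B (edgeR FDR 9.88e-10) and by 27.4% with SNX631 (edgeR FDR 2.36e-15). The interaction of BCL2L1 was 0.02 at 24 h (95% interval -0.08 to 0.12) and -0.17 at 72 h (SE 0.045, edgeR FDR 0.00665). The pass at 72 h was lost in 12 of the 16 fits with a library left out, with FDRs up to 0.0294, and by DESeq2 and with no filter on low counts.

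MCL1 was lowest in the combined treatments. It was at 250, 240 and 244 CPM with R1881 and Senexin B and at 286, 284, 294 and 289 CPM with R1881 and SNX631, below every library of the other 3 groups of its experiment. Relative to R1881 alone MCL1 fell by 11% with Senexin B (log2 -0.17, edgeR FDR 0.000152) and by 11.2% with SNX631 (log2 -0.17, edgeR FDR 3.11e-07). The interaction of MCL1 was -0.01 at 24 h (95% interval -0.10 to 0.08) and -0.15 at 72 h (SE 0.034, edgeR FDR 0.00249), the latter lost without vehicle replicate 2 or 3, with FDRs up to 0.0106.

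**Figure D4:**
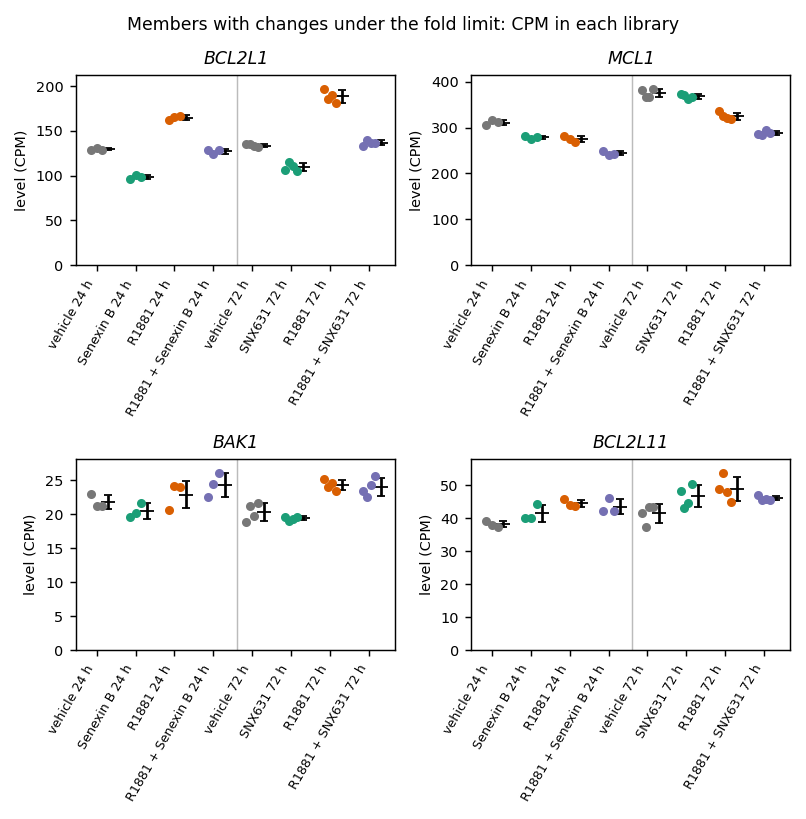
Level in CPM of BCL2L1, MCL1, BAK1 and BCL2L11 in each library of the 8 groups; points are libraries and bars means with SD (n = 3 at 24 h, left of the grey line, and n = 4 at 72 h). BCL2L1 is raised by R1881 and lowered by either inhibitor, and MCL1 is lowest in the combined treatments.

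BMF stayed low with R1881 whether or not an inhibitor was present. It was at 20.3, 19.97 and 21.6 CPM with R1881 and Senexin B and at 19.7, 17.9, 19.0 and 19.5 CPM with R1881 and SNX631. In the presence of inhibitor R1881 lowered BMF to 0.339 of the level at 24 h (log2 -1.56, SE 0.062) and to 0.263 at 72 h (log2 -1.93, SE 0.059), so that it was 1 of the 2 of 10 members called for R1881 in the presence of inhibitor in each experiment, beside 18.9% of all genes at 24 h and 22% at 72 h. PMAIP1 was the other. With the FDR limit alone 5 of 10 members passed for R1881 in the presence of either inhibitor, beside 47.5% of all genes at 24 h and 57.3% at 72 h. The interaction of BMF was 0.18 at 24 h (edgeR FDR 0.283) and -0.09 at 72 h (edgeR FDR 0.599).

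In the combined treatments BCL2 was at 3.22, 4.11 and 3.83 CPM with R1881 and Senexin B and at 3.83, 3.71, 4.19 and 5.35 CPM with R1881 and SNX631. At 24 h 2 of the 3 libraries of the combination lay above every library with either agent alone, while at 72 h the groups overlapped. The BCL2 difference with R1881 was 0.52 in the presence of Senexin B (95% interval 0.12 to 0.92, edgeR FDR 0.0286) and -0.01 in the presence of SNX631 (95% interval -0.30 to 0.29). The difference in the presence of Senexin B ran from 0.30 to 0.79 over the left-out libraries and was called without Senexin B replicate 1, at an FDR of 0.00382. The BCL2 interactions of -0.34 at 24 h and -0.52 at 72 h did not pass (edgeR FDR 0.636 and 0.151).

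R1881 raised BAK1 by 19% in the presence of Senexin B (edgeR FDR 0.00641) and by 23.8% in the presence of SNX631 (edgeR FDR 2.54e-05). The BAK1 pass at 24 h was lost without Senexin B replicate 1 or 2 or R1881 with Senexin B replicate 2 or 3, with FDRs up to 0.0585, and by DESeq2, when thinned and with library totals only, with FDRs up to 0.0524. The log2 androgen difference of BCL2L11 was 0.068 in the presence of Senexin B and -0.02 in the presence of SNX631, neither of which passed. The interaction of BCL2L11 was -0.16 at 24 h (edgeR FDR 0.302) and -0.26 at 72 h (SE 0.076, edgeR FDR 0.0197), which missed the limit. For BAK1 the interaction did not pass at either time (edgeR FDR 0.481 and 0.744). How far the BCL2L11 and BAK1 interactions depended on single libraries or on processing was not examined. In the presence of inhibitor BAX, BIK and BCL2L2 did not pass for R1881 in either experiment, although with library totals only BAX and BIK passed as lower in the presence of SNX631, with FDRs of 0.00674 and 0.00245.

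**Figure D5:**
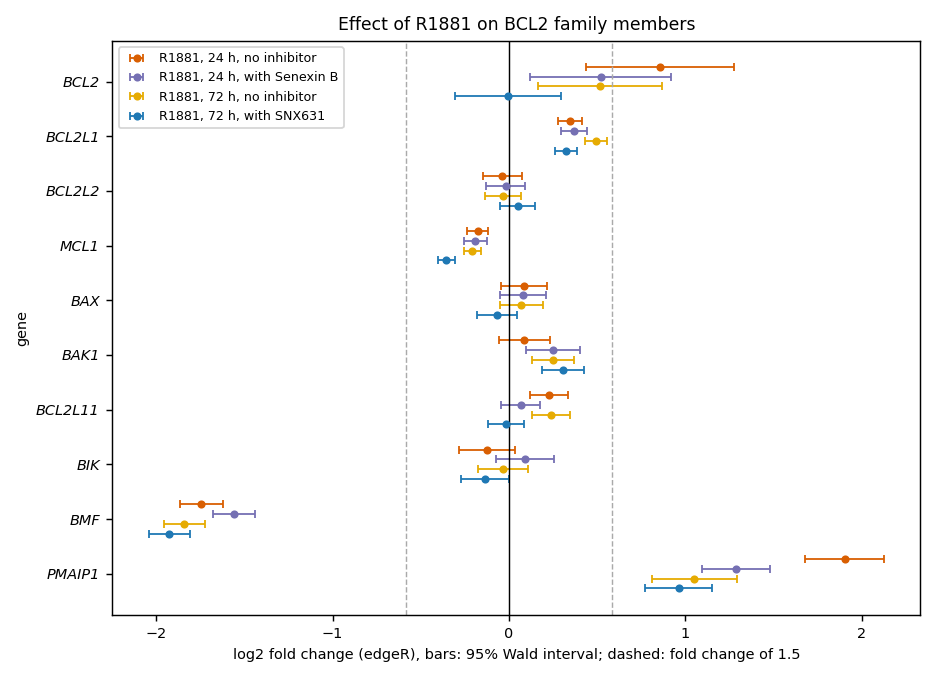
Log2 fold change of each member with R1881 at 24 h or 72 h, without and with the inhibitor; points are edgeR estimates, bars 95% Wald intervals, and dashed lines a fold change of 1.5. BMF lies left and PMAIP1 right of the dashed lines in all 4 comparisons, and BCL2L1 and MCL1 lie within them on opposite sides of 0.

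The 3 members called most often were also described by the genes whose log2 CPM followed theirs most closely over the 28 libraries, centred within each experiment and ranked over 15680 genes. These correlations describe libraries that share treatments and are given without a test. For BMF the nearest were TLE3, a corepressor, SSBP2 and ATP2B1, a calcium pump of the plasma membrane, each with a Pearson r of 0.993. For PMAIP1 the nearest were TMEM97 (r = 0.977), XRCC3, a gene of homologous recombination (r = 0.976), and CTPS1, which makes CTP (r = 0.976). For BCL2 the nearest were ENSG00000254877 (r = 0.837), the checkpoint kinase ATR (r = 0.83) and the transcription factor TFAP4 (r = 0.824). These values were lower than those for PMAIP1 and BMF. BCL2 rested on 15 to 73 counts per library, and the part of counting error in its lower correlations was not tested.

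Other genes around the family were counted in lists by function. Of 13 further BCL2 family genes, BCL2A1, BCL2L10, BCL2L14 and BCL2L15 held at most 5 counts in any library and were not tested. HRK passed the filter on low counts at 24 h but not at 72 h. With R1881 at 24 h 2 of 9 tested were called, beside 19% of all genes, and at 72 h 4 of 8, beside 19.8%. BCL2L12 rose at 24 h (log2 0.72, edgeR FDR 1.72e-06) and 72 h (log2 0.72, edgeR FDR 3.33e-09). BID, the BH3-only protein that is cut by caspase 8, fell at 24 h (log2 -0.71, edgeR FDR 1.64e-09) and 72 h (log2 -0.71, edgeR FDR 4.25e-10). The other 2 called at 72 h, named after their values were seen, were BNIP3, a mitophagy receptor, which rose by 0.69 (edgeR FDR 9.52e-21), and BBC3, which encodes PUMA and fell by 0.62 (edgeR FDR 1.85e-06) on the log2 scale. The medians of the list, -0.14 at 24 h and -0.05 at 72 h, stood beside -0.02 and -0.01 for all genes tested.

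Of the 14 apoptosome, caspase and inhibitor-of-apoptosis genes, 6 passed the FDR limit with R1881 at each time, 5 higher and 1 lower, beside 48.4% of all genes at 24 h and 52.2% at 72 h. At each time 2 were called, beside 19% of all genes at 24 h and 19.8% at 72 h. They were BIRC5, which encodes survivin, a protein of dividing cells, and BIRC3, which encodes cIAP2. BIRC5 rose at both times, by 2.38 and then 1.53 on the log2 scale (edgeR FDR 1.19e-21 and 1.14e-23). BIRC3 was at 3.56 ± 0.52 CPM with vehicle at 24 h (SD, n = 3) and 1.17 ± 0.79 CPM with R1881 (SD, n = 3), the latter on only 3 to 19 counts per library. Its log2 differences with R1881 were -1.59 at 24 h and -2.87 at 72 h (edgeR FDR 3.17e-05 and 3.42e-11). BIRC3 also fell with Senexin B by 1.13 (edgeR FDR 0.00116) and with SNX631 by 0.94 (edgeR FDR 0.000297).

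Of the 11 tested genes of the death receptor pathway, 5 passed with R1881 at 24 h, beside 48.4% of all genes, and 8 at 72 h, beside 52.2%. TNFRSF10B, the death receptor DR5, rose by 0.68 and 0.79 on the log2 scale (edgeR FDR 1.76e-16 and 7.52e-24), and TNFRSF10D, a decoy receptor for the same ligand, fell by 0.94 and 0.67 (edgeR FDR 6.49e-18 and 3.8e-18). Their ligand gene TNFSF10 held at most 3 counts in any library. Of 16 transcriptional regulators of the family, 11 passed with R1881 at 24 h and 12 at 72 h, beside the same 48.4% and 52.2%. E2F1, a driver of the cell cycle, rose by 2.98 and 1.75 on the log2 scale (edgeR FDR 1.67e-23 and 6.74e-25). DDIT3, the stress factor CHOP, fell by 0.92 and 0.80 (edgeR FDR 4.2e-08 and 5.06e-08), and NFKB1 fell by 0.70 and 0.98 (edgeR FDR 9.75e-15 and 6.5e-23). Of the 11 genes for turnover and tethering of family proteins, 4 passed with R1881 at 24 h and 5 at 72 h, beside those shares, and their median absolute log2 fold changes of 0.073 and 0.14 stood beside 0.26 for all genes tested at both times.

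With the inhibitors and no androgen, 3 of 61 tested genes of these 5 lists were called with Senexin B, beside 3.79% of all genes, and 3 of 60 with SNX631, beside 4.77%. BIRC3 was among them each time. With SNX631 the others were BIRC5 and E2F1, which rose by 0.94 and 0.79 on the log2 scale (edgeR FDR 3.33e-15 and 6.64e-12). With Senexin B the others were MYC and HRK. MYC rose from 251 ± 3.2 CPM with vehicle at 24 h to 380 ± 14 CPM with Senexin B (SD, n = 3 each). By these means the change was close to the fold limit. In the presence of R1881, Senexin B called 0 of 16 regulators, beside 3.12% of all genes. There MYC was at 282 ± 8.2 CPM with R1881 alone and 391 ± 0.42 CPM with both (SD, n = 3 each). HRK, a BH3-only gene, was at 1.04 ± 0.44 CPM with vehicle at 24 h (SD, n = 3), on 9 to 35 counts per library. HRK rose by 1.05 on the log2 scale with Senexin B (edgeR FDR 0.00225). With the FDR limit alone, 4 of 9 further family genes, 5 of 14 apoptosome genes, 2 of 11 death receptor genes, 7 of 16 regulators and 2 of 11 turnover genes passed with Senexin B, beside 25.1% of all genes. With SNX631 these counts were 4 of 8, 7 of 14, 3 of 11, 6 of 16 and 2 of 11, beside 26.9% of all genes.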

How the data were processed

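RNA-seq libraries of LNCaP cells, 28 in all, were analysed from 1 deposited table of expected counts per gene. The authors deposited these expected counts without scaling to depth, and 16.9% of values above 0 had a fractional part, as arises when a read is shared between places or genes. The submitters' processing notes name FastQC, cutadapt 2.8, STAR 2.7.2b and featureCounts of Subread 2.0.3, with the builds GRCh38.p13 and GRCm39. A directional kit was used per the labels. The use of strand in counting is not given in the sources used here. Of the table, 61815 human genes were used, and 2 added entries with 0 counts were left out. Fractional counts were found for BCL2L2 in 20 of 28 libraries, MCL1 in 11, BCL2L11 in 4 and BMF in 1.

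The members and lists were chosen with earlier results of these data known. Values were rounded, and each experiment was fitted alone with edgeR 4.0.16 in R 4.3.3 (TMM, filterByExpr at a count of 10 and a total of 15, quasi-likelihood test, Benjamini-Hochberg adjustment over all genes tested), with a fit of all 28 libraries for the comparison between experiments. A member passed at an FDR under 0.01 and was called when its fold change was also over 1.5. SEs and 95% intervals are Wald values. The labels describe biological triplicates or quadruplicates and give no further detail of the cultures, so p-values measure the spread between these libraries. Totals of 9846595 to 33809419 counts set the precision, and counting error is largest for BCL2. All 10 members were named, with up to 3 genes per list and direction that were called alike in both experiments, KLK3 as a check, and the 3 genes nearest in pattern to each of the 3 members called most often. Among called genes of the lists, HRK, MYC, BNIP3 and BBC3 were named outside this rule, after their values were seen.

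Replicate numbers marked shared deviations weakly at most. The median correlation of libraries with the same number was 0.020 at 24 h and 0.013 at 72 h, beside -0.024 and 0.00059 for different numbers. The highest was 0.19 at 24 h and 0.057 at 72 h with the same number, beside 0.092 and 0.19 with different numbers. Alternatives were DESeq2 1.42.0, other scalings, filters, limits, sample sets and blocks, thinning and leaving out each library. Exon lengths and overlaps are from GENCODE release 29 and promoters from RefSeq.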

Additional observations from a re-analysis of the deposited data

Results flagged for a closer look

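In 2 of the 40 sets of 4 libraries examined at 72 h, 1 library lay far from the other 3, and chance alone would give about 2. Replicate 4 of R1881 was the lowest of its group for PMAIP1, at 7.90 CPM beside 10.9 to 11.1 CPM in the others. Without that library the call of PMAIP1 for SNX631 in the presence of R1881 was lost, at a log2 fold change of 0.53. Replicate 1 of R1881 with SNX631 was the highest of its group for BIK, at 20.8 CPM beside 19.1 CPM in each of the others, and no call rested on BIK.

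The androgen effect differed with and without SNX631 at 72 h for BCL2L1, by -0.17 on the log2 scale, and for MCL1, by -0.15 (edgeR FDR 0.00665 and 0.00249). Both changes were under the fold limit. The BCL2L1 pass was lost in 12 of the 16 fits with a library left out, with FDRs up to 0.0294. It was also lost by DESeq2 and with no filter on low counts. The MCL1 pass was lost in 2 of the 16 fits, with FDRs up to 0.0106. The androgen effect on PMAIP1 was smaller at 72 h than at 24 h, with a difference of -0.85 on the log2 scale (edgeR FDR 0.00027). Time, dose and libraries differed between the experiments and cannot be told apart.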

How the results depend on the processing

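Of the 14 called member values, 9 kept their call under all 12 alternatives and without each library, and none changed direction. Among these alternatives, the FDR limit of 0.05 with any fold change could not remove a call. With an FDR limit of 0.05 and any fold change, the members passing were 6 for R1881 at 24 h, 6 with Senexin B, 7 at 72 h, 5 with SNX631 and 2 for 72 h against 24 h. At that limit 5 passed for Senexin B, 4 for it with R1881, 5 for SNX631, 3 for it with R1881, 1 for the 24 h interaction and 3 for the 72 h interaction. The share of all genes at that limit was not counted, so these counts are no result about the members. At an FDR under 0.01 alone, 47.5% to 57.3% of all genes passed for R1881 and 22.7% to 33.1% for an inhibitor. A test against a fold change of 1.5 was judged at an FDR under 0.05. It left 0 for SNX631, 0 for it with R1881 and 0 for 72 h against 24 h. For R1881 at 24 h the call of BCL2 was lost in it, at an FDR of 0.215. On the fold change this test is stricter by its construction. DESeq2 left 1 for SNX631, and a filter at 1 CPM gave 1 for the 24 h interaction, where the cause was not tested. Without 1 library, counts ran from 0 to 1 for the 24 h interaction (1 without R1881 or Senexin B replicate 2), 1 to 2 for Senexin B (2 without its replicate 3), 0 to 1 for SNX631 with R1881 and 1 to 2 for SNX631. They ran from 2 to 3 for R1881 in the presence of Senexin B and for R1881 alone at 72 h.

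The interactions and the 72 h against 24 h values of BCL2L2, BAX, BAK1, BCL2L11 and BIK were not followed here. Among the other member values, directions turned only for those that had not passed. With library totals they were BAX with R1881 at 72 h (-0.0315), BCL2L11 with R1881 and Senexin B (-0.00726), and BCL2L2 with R1881 and SNX631 (-0.0593) and with SNX631 in the presence of R1881 (-0.0193, and -0.00423 when thinned). For BCL2 with R1881 in the presence of SNX631 they were 0.00787 in one fit of all libraries, 0.00595 by DESeq2, 0.0238 without a filter and 0.0168 when thinned. Without a filter BAK1 with SNX631 and R1881 was at 0.00144 and BCL2L11 with R1881 and SNX631 at 0.013. With a library left out, ranges that crossed 0 were -0.0496 to 0.014 for BAK1 and -0.0283 to 0.265 for BCL2 with SNX631 in the presence of R1881, -0.13 to 0.114 for BCL2, -0.055 to 0.0227 for BCL2L11 with R1881 in the presence of SNX631, -0.00659 to 0.0373 for the 24 h interaction of BCL2L1, -0.0558 to 0.0201 for BCL2L2 with R1881 in the presence of Senexin B, -0.0129 to 0.0494 for BCL2L2 with SNX631 in the presence of R1881, and -0.100 to 0.0432 with R1881 and -0.0805 to 0.0632 with SNX631 for BIK at 72 h.

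With the replicate block, the counts of called members were the same, 3 for R1881 at 24 h and 2 at 72 h among them, and BCL2 with R1881 at 72 h passed the FDR limit. Libraries correlated best with their own number in 7 of 12 at 24 h and 2 of 16 at 72 h. Of the 38 member values past the FDR limit, 30 stayed past it under every alternative other than the fold test and without each library. Depth limits BCL2 most, with 15 to 73 counts per library.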
